A study of Saccharomyces cerevisiae x Saccharomyces paradoxus and Saccharomyces cerevisiae and Saccharomyces paradoxus with 40 samples.

Results

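Genes of protein folding and of the general stress response were followed through sporulation of budding yeast: 3 heat shock proteins named for their size (HSP12, HSP26, HSP104), the Hsp70 chaperone SSA4, the Hsp90 chaperone HSC82 and the catalase CTT1. The set was given as 7 named genes, and 6 of them were among the 3217 genes with counts; HSP42 was not analysed here. All 6 passed the filter on low counts. Messenger RNA was sequenced from 40 cultures of 3 genotypes at 4 stages. The genotypes were S. cerevisiae (3 biological replicates per stage), its relative S. paradoxus (3 per stage) and their hybrid (4 per stage). All cultures were grown in rich glucose medium and then moved to acetate sporulation medium. T0, the control stage, is the moment of that move, M1 the start of meiosis I, M1M2 the end of meiosis I together with the start of meiosis II, and M2 the end of meiosis II. Per the series' design text the hybrid group mixes both directions of the cross, with reciprocal mating types, and the labels do not give the direction of each library.

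Chaperones of the Hsp70 and Hsp90 families hold unfolded proteins and help them to fold; small heat shock proteins bind proteins that are losing their fold, and Hsp104 pulls aggregated proteins apart. In yeast these genes answer to heat, but many also answer to starvation. Heat shock factor Hsf1 binds heat shock elements in their promoters, while the factors Msn2 and Msn4, held back by protein kinase A when glucose is plentiful, bind the stress response element. Sporulation starts from starvation for nitrogen and fermentable sugar.

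The genes differ in the letters upstream of their start codons, which are shown first for 4 genes whose levels took different courses. In the 600 bases upstream of the start codon (RefSeq, assembly R64, S. cerevisiae; the S. paradoxus sequence was not used here), the stress response element AGGGG was counted on both strands. HSP12 held 5 matches, CTT1 held 4, HSP26, HSP104 and SSA4 held 3 each, and HSC82 held 0. Of 5999 promoters of the same length, 39.7% held at least 1 match and 2.43% held 3 or more. The heat shock element was searched as GAANNTTC and as GAANNTTCNNGAA. The other order of its units, TTCNNGAA, was not searched by itself. The SSA4 and HSC82 stretches below hold that order as ttctagaa in small letters. A gene with no match here may therefore still hold heat shock element units. The first form, present in 22.8% of promoters, occurred in HSP104 at 1 place. The longer form, present in 1.7% of promoters, was found 2 times in HSP104, on overlapping letters that also contain the first form. A match is a run of letters and not a measured binding site. Below, each stretch is 300 bases on the plus strand, ends at least 100 bases before the start codon, and has the matches in capitals (AGGGG or its complement CCCCT, and in HSP104 the run with the heat shock elements).
The SSA4 stretch lies at chrV:364122-364421, the CTT1 stretch at chrVII:654234-654533, the HSC82 stretch at chrXIII:631955-632254 and the HSP104 stretch at chrXII:88223-88522.
SSA4: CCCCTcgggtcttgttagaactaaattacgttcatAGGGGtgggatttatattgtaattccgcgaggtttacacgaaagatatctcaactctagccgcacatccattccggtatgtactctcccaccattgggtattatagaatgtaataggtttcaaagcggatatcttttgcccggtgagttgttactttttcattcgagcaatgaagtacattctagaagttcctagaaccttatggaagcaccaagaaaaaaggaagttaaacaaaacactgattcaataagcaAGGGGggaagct
CTT1: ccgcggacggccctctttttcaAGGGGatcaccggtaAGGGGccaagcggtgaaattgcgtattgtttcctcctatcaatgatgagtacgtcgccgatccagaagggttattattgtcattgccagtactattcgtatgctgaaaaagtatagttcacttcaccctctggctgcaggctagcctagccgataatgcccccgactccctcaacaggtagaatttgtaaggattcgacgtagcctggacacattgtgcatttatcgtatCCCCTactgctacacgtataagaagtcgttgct
HSC82: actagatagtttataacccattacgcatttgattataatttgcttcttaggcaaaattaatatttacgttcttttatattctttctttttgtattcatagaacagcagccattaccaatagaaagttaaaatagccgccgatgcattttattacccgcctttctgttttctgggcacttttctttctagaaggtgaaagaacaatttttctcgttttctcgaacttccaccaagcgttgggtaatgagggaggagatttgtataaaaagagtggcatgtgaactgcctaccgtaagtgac
HSP104: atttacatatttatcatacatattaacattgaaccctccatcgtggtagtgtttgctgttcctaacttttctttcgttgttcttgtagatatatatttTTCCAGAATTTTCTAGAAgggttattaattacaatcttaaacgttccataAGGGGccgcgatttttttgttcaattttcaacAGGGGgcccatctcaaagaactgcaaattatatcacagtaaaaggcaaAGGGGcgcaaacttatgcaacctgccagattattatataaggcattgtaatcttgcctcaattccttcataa

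All 6 genes lie on the plus strand of R64 and overlap no other annotated gene. HSP12 (YFL014W) is at chrVI:107256-107585, HSP26 (YBR072W) at chrII:382030-382674 and HSP104 (YLL026W) at chrXII:88623-91349. SSA4 (YER103W) is at chrV:364589-366517, HSC82 (YMR186W) at chrXIII:632355-634472 and CTT1 (YGR088W) at chrVII:654634-656322. HSC82 has a near-identical copy, the heat-inducible Hsp90 gene HSP82, whose coding sequence matches it at 92.43% of 2115 aligned bases. Of the runs of 36 bases in HSC82, 12.19% occur unchanged in HSP82. How reads that fit both were assigned is not given in the sources used here, so HSC82 counts are uncertain to that extent. None of the other members shared a 36-base run with the paralog compared with it (SSA1, SSA2 and SSA3 for SSA4, CTA1 for CTT1, HSP42 for HSP26 and HSP78 for HSP104).

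Libraries held 23453 to 7732384 counts in genes (median 1348916), and 5 held fewer than 500000. These were S. cerevisiae M1M2 replicate 2 (23453 counts), hybrid M2 replicate 3 (117049), S. cerevisiae M1 replicate 2 (159496), S. paradoxus M2 replicate 2 (300704) and hybrid T0 replicate 4 (378084). By rank correlation over all genes, 7 libraries were closer to the mean of a neighbouring stage than to their own: S. cerevisiae M1 replicate 2 and M1M2 replicates 1 and 2, S. paradoxus M1 replicate 3 and M2 replicates 1 and 3, and hybrid M2 replicate 1. Each library was left out of its own mean only, so own means rested on fewer libraries. Margins ran from 0.7573 against 0.7575 (S. paradoxus M2 replicate 3) to 0.7329 against 0.8198 (S. paradoxus M1 replicate 3). The spore wall gene CDA1, a marker of late sporulation, averaged 17.4, 25.7 and 48.2 CPM at T0 and 5021, 3628 and 5140.0 at M2 in S. cerevisiae, S. paradoxus and the hybrid. At M1M2 it averaged 251, 876 and 3486 CPM in the same order, so the genotypes were not alike in this marker there. The part of stage in comparisons of genotypes at M1M2 was not tested. In S. cerevisiae M1 replicate 2 the early meiotic kinase gene IME2 stood at 1894 CPM (counts per 1000000 counts in genes, with the library totals scaled by TMM factors) against 140 and 352 in replicates 1 and 3. Levels below are CPM, so in these bulk cultures fewer cells expressing a gene and less RNA per cell cannot be told apart. Changes are log2 ratios ± SE from edgeR's quasi-likelihood test, and a gene is called changed where the p, adjusted by Benjamini-Hochberg over all 3094 genes tested, was under 0.05. The SE was derived from the test as the absolute log2 ratio divided by the square root of its F statistic. The p-values measure the spread between these replicates. For comparisons of genotypes and stages that spread was estimated over all 12 groups together, and not only in the groups compared.

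The 6 genes did not move as a block: CTT1 and, in S. paradoxus, SSA4 fell from T0, HSC82 rose in every genotype, and HSP12 and HSP104 were called in no comparison by edgeR with all libraries, though some alternatives called them. In S. cerevisiae, 1 of 6 genes was called against T0 at M1 (8.86% of all genes tested), 2 at M1M2 (12.4%) and 3 at M2 (22.8%). In S. paradoxus the counts were 3 at M1 (3.36%), 3 at M1M2 (9.34%) and 3 at M2 (15.1%). In the hybrid they were 1 at M1 (12.5%), 2 at M1M2 (22.1%) and 2 at M2 (26%). The 3 comparisons of a genotype share their T0 libraries. The median change of the 6 genes at M2 was 0.52 in S. cerevisiae, −1.196 in S. paradoxus and 0.29 in the hybrid, beside 0, −0.33 and −0.22 over all genes tested. Within groups the members varied less than the median gene: their SD on the log2 scale ran from 0.55 (HSC82) to 1.34 (HSP26), and the median over all genes was 1.70. The members also stood at higher levels than most genes, with ranks from 3 (HSP12) to 1000 (HSP26) of 3094. Their spread was not compared with that of genes at like levels.

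**Figure D1:**
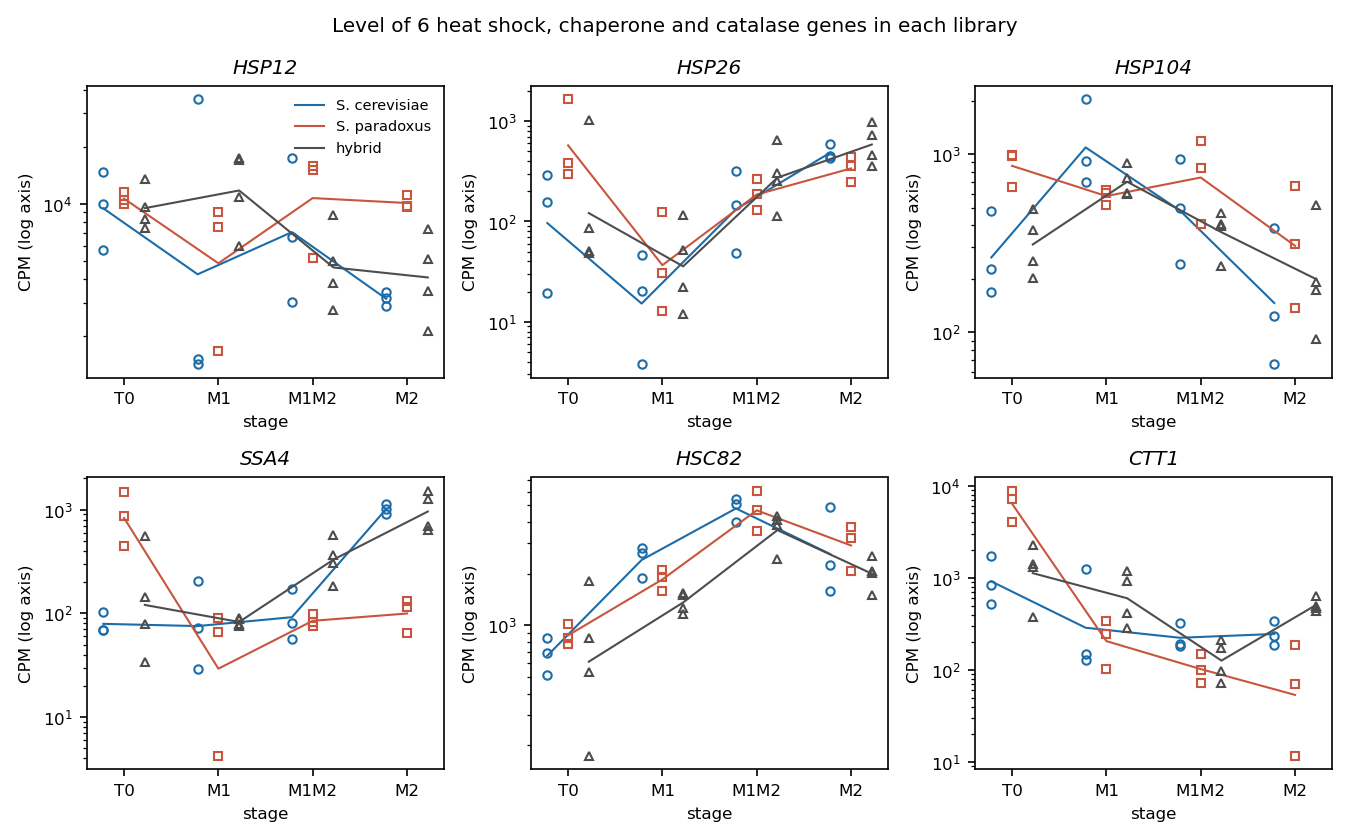
Level of each gene in CPM (log axis) in every library at T0, M1, M1M2 and M2, with circles for S. cerevisiae, squares for S. paradoxus and triangles for the hybrid; lines join the geometric means of the groups. CTT1 in S. paradoxus stands at 4056 to 8802 at T0 and at no more than 342 later, and SSA4 at M2 stands at 638 or above in every S. cerevisiae and hybrid library and at 132 or below in every S. paradoxus library.

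HSP12 encodes a small membrane-associated protein that stabilises the plasma membrane under stress. It was the most abundant of the 6, ranking 3rd of 3094 genes by mean log2 CPM, and made up 0.152% to 2.19% of a library's counts in genes. Per kilobase of coding sequence its group means ran from 9553 CPM in S. cerevisiae at M2 to 38721.9 CPM in the hybrid at M1, leaving aside S. cerevisiae at M1, where the replicates stood at 4302, 107899.9 and 4589.8 CPM per kilobase. At T0 the S. cerevisiae libraries held 14721, 5702 and 9994 CPM, the S. paradoxus libraries 9915, 11473 and 10494, and the hybrid libraries 8342, 7434, 9611 and 13454. At T0 the 3 genotypes overlapped. At M2 the S. cerevisiae libraries held 3167, 2891 and 3399.8 CPM, and the S. paradoxus libraries 11071, 9574 and 9760.4. The hybrid libraries at M2 held 3476, 2128, 7336 and 5126 CPM. Both parental groups were tight at M2 and did not overlap, and the hybrid libraries lay below all S. paradoxus libraries. The S. cerevisiae change from T0 to M2 was −1.69 ± 0.71 with an adjusted p of 0.0763, and the S. paradoxus change was −0.07 ± 0.69, so neither was called. The S. cerevisiae value was called without T0 replicate 2 (−2.098, adjusted p = 0.0299), and also with no filter on low counts (−1.79, adjusted p = 0.0409) and with only the groups compared (−1.73, adjusted p = 0.0255). It was also called without the 4 shallowest libraries (−1.75, adjusted p = 0.0087). The S. paradoxus minus S. cerevisiae difference at M2 was not called by edgeR with all libraries. With only the groups compared it was called (1.85, adjusted p = 0.0071).

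At M1 the S. cerevisiae HSP12 libraries split, with 1419.5 and 1515 CPM in replicates 1 and 3 and 35607 CPM in replicate 2, the shallow library with the high IME2 level. With all 3 libraries the change from T0 was 0.34 ± 0.69. Without replicate 2 it was −2.79 on the log2 scale and called (adjusted p = 0.00933). The hybrid minus S. cerevisiae value at M1 also changed sign without that library, to 3.12 (adjusted p = 0.00279). The part of library depth or of stage in this value was not tested. At M1 the hybrid libraries held 10828, 5961, 17396 and 16927 CPM, the highest group mean of HSP12 on the log2 scale. The 12 group means of HSP12 spanned 1.9 log2 units with that library included, and in 0 of 11 neighbouring pairs in their order did the means lie farther apart than the larger SD.

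HSP26 encodes a small heat shock protein that binds unfolding proteins and keeps them soluble. With all libraries a fall from T0 to M1 was called in S. paradoxus and in the hybrid, but neither call held in every setting. The S. paradoxus libraries held 386, 296 and 1654 CPM at T0 and 12.7, 126 and 30.9 at M1, without overlap, a change of −3.80 ± 1.06 (adjusted p = 0.0268). The hybrid libraries held 48.1, 50.5, 86.8 and 1025 CPM at T0 and 11.9, 52.5, 117 and 22.2 at M1, which overlap, a change of −2.54 ± 0.87 (adjusted p = 0.0426). The hybrid T0 library at 1025 CPM is the shallow replicate 4, and without it the hybrid change was −0.10 (adjusted p = 0.963). Without S. paradoxus T0 replicate 3 the S. paradoxus change was −2.61 and was not called (adjusted p = 0.287); it was also not called without M1 replicate 1 (−3.20) or 3 (−3.50), and was −4.98 without M1 replicate 2. The hybrid call was also lost without M1 replicate 1, 2 or 4, and the value was −3.35 without M1 replicate 3. Of 8 other settings, the hybrid call held in 1, DESeq2's Wald test. The S. paradoxus call held in 7 of 8 and was lost by edgeR with only the groups compared (adjusted p = 0.0828).

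The HSP26 level then climbed in the hybrid. At M1M2 the hybrid libraries held 252, 656, 112 and 301 CPM, and at M2 458, 360, 986 and 721. HSP26 rose from M1 to M1M2 in the hybrid by 2.68 log2 units ± 0.87 (adjusted p = 0.046), among 2 of 6 members called in that step (7.4% of all genes). That call was lost without M1 replicate 1, 2 or 4 or M1M2 replicate 1, 2 or 4, and the value was 3.49 without M1 replicate 3. It held in 5 of 8 other settings. It was lost by edgeR with DESeq2's size factors (adjusted p = 0.0705) or the replicate number as a block (0.0723), and by limma (0.0627). Against T0 the hybrid value at M2 was 1.07 ± 0.83 with all libraries and 3.35 (adjusted p = 0.00497) without T0 replicate 4. In S. cerevisiae the libraries held 19.4, 292 and 158 CPM at T0, 45.8, 20.4 and 3.77 at M1 and 449, 597 and 428 at M2. Thus the M1 libraries of S. cerevisiae partly overlapped those at T0 and the M2 libraries lay above both, but neither the M1 value (−2.69 ± 1.05, adjusted p = 0.0945) nor the M2 value (1.66 ± 0.97, adjusted p = 0.225) was called. HSP26 was the most variable member, and the M1 groups of S. cerevisiae rested on as few as 2 counts in a library.

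HSP104 encodes the AAA+ disaggregase that, with Hsp70, returns aggregated proteins to solution. By edgeR with all libraries it was called in no comparison. In S. cerevisiae its libraries held 226, 481 and 168 CPM at T0 and 915, 2037 and 702 at M1, without overlap, a value of 2.06 ± 0.70 with an adjusted p of 0.051. DESeq2's Wald test called it (2.02, adjusted p = 0.0255), as did limma on the deposited log2-like values (1.81, adjusted p = 0.0324). The S. paradoxus libraries held 982, 989 and 658 CPM at T0 and 630, 517 and 608 at M1, again without overlap and with a value of −0.58 ± 0.67. The hybrid libraries held 252, 376, 202 and 496 CPM at T0 and 609, 599, 740 and 896 at M1, again without overlap, and a value of 1.105 ± 0.59 (adjusted p = 0.236). The S. cerevisiae and hybrid values thus point up at M1 where the S. paradoxus value points down, and the difference between the parents' changes was −2.64 ± 0.97 (adjusted p = 0.134). Without the 5 shallow libraries the hybrid value was called (1.52, adjusted p = 0.0345). By M2 the libraries held 384, 66.2 and 123 CPM in S. cerevisiae, 668, 138 and 313 in S. paradoxus and 91.9, 193, 520 and 172 in the hybrid. At that stage all 3 genotypes overlapped. The S. cerevisiae step from M1M2 to M2 was called without M2 replicate 1 (−2.64, adjusted p = 0.0293).

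SSA4 encodes the cytosolic Hsp70 that is almost silent in growing cells and strongly made after heat shock. It took opposite courses in the parents. In S. cerevisiae SSA4 stood at 104, 69.5 and 68.7 CPM at T0, 72.8, 204 and 28.9 at M1, and 56.6, 80.3 and 170 at M1M2. At M2 the S. cerevisiae libraries held 1008, 1143 and 904 CPM, above every earlier library of that genotype. The rise from T0 to M2 was 12.6-fold (3.66 ± 0.86 on the log2 scale, adjusted p = 0.00102). From M1M2 to M2 it was 3.24 (adjusted p = 0.0108), the 1 of 6 members called in that step (9.11% of all genes). The latter call was lost without M1M2 replicate 1 (2.84, adjusted p = 0.0813), and the value was 4.03 without M1M2 replicate 3. The other step, M1 to M1M2, called 0 of 6 members (2.33% of all genes) by edgeR.

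In S. paradoxus SSA4 started high and fell. Its libraries held 876, 447 and 1459.9 CPM at T0, then 89.9, 4.24 and 65.9 at M1, 74.9, 82.7 and 98.2 at M1M2, and 132, 114 and 65.3 at M2. No later library reached the lowest T0 library. The changes from T0 were −4.11 ± 0.88 at M1 (adjusted p = 0.00169), −3.44 ± 0.85 at M1M2 (adjusted p = 0.00436) and −3.15 ± 0.84 at M2 (adjusted p = 0.00568). Each of them, and the S. cerevisiae rise at M2, was called whichever single library was left out, though the M1 value was −3.45 without M1 replicate 2. Restricted to the 2 groups compared, the M1 value was −3.91 with an adjusted p of 0.0512.

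The hybrid held 78.5, 143, 559 and 33.7 CPM of SSA4 at T0 and 89.7, 75.3, 78.3 and 87.9 at M1. At M1M2 its libraries held 569, 309, 362 and 185 CPM, and at M2 690, 638, 1517 and 1252. The M2 libraries lay above all T0 and M1M2 libraries, and the change from T0 to M2 was 2.33 ± 0.71 (adjusted p = 0.01). The M1M2 libraries of the hybrid lay above all 3 libraries of either parent at M1M2, but the M1M2 change from T0 (0.81 ± 0.68, adjusted p = 0.428) and the differences from S. cerevisiae (1.72 ± 0.81, adjusted p = 0.249) and from S. paradoxus (2.06 ± 0.78, adjusted p = 0.391) were not called. The late marker CDA1 was also highest in the hybrid at M1M2 (3486 CPM, beside 251 in S. cerevisiae and 876 in S. paradoxus). The part of stage in these differences was not tested. The step from M1 to M1M2 in the hybrid was 2.11 ± 0.70 (adjusted p = 0.0508). Without T0 replicate 3, the library at 559 CPM, the change from T0 to M2 was 3.53.

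**Figure D2:**
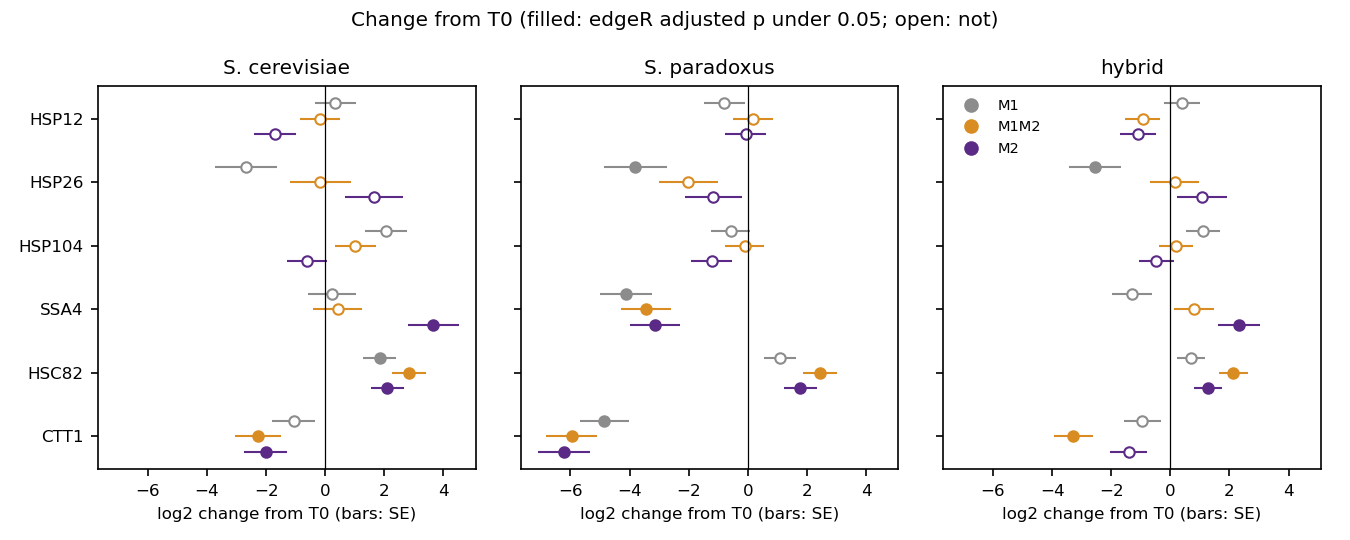
Change of each gene from T0 on the log2 scale (edgeR estimate, bars ± SE) at M1 (grey), M1M2 (orange) and M2 (purple), with a panel for each genotype; filled points have an edgeR adjusted p under 0.05. CTT1 lies between −6.22 and −4.86 in S. paradoxus, and SSA4 at M2 is at 3.66 in S. cerevisiae, −3.15 in S. paradoxus and 2.33 in the hybrid.

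HSC82 encodes the Hsp90 chaperone that yeast makes at all times, which helps kinases and other client proteins to mature. Its level rose in all 3 genotypes to a peak in group mean at M1M2. In S. cerevisiae its libraries held 510, 838 and 689 CPM at T0, 2634, 2821 and 1876 at M1, 3970.3, 5062 and 5445 at M1M2 and 4879.6, 2253 and 1591 at M2. In S. paradoxus they held 782, 1014 and 842 at T0, 2102, 1900.3 and 1590.1 at M1, 4709.9, 6076 and 3560.4 at M1M2 and 3713, 3245 and 2064.5 at M2. In the hybrid they held 845, 537, 174 and 1811 at T0, 1259.7, 1549, 1503 and 1158 at M1, 3842, 2425, 4086 and 4337 at M1M2 and 2079, 2011, 1506 and 2538 at M2. Every M1M2 library lay above every T0 and M1 library of its genotype.

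The HSC82 rise from T0 to M1M2 was 2.83 ± 0.58 in S. cerevisiae (adjusted p = 0.000632), 2.44 ± 0.57 in S. paradoxus (adjusted p = 0.00237) and 2.13 ± 0.49 in the hybrid (adjusted p = 0.000687). These 3 calls held whichever library was left out. Without hybrid T0 replicate 4, the library at 1811 CPM, the hybrid rise was 2.88 at M1M2 and 1.95 at M2. At M2 HSC82 was still above T0, by 2.099 ± 0.56, 1.77 ± 0.56 and 1.28 ± 0.48 (adjusted p = 0.00382, 0.0208 and 0.0397 in the same order). The M2 calls were less stable: the S. cerevisiae call was lost without M2 replicate 1 (1.50, adjusted p = 0.0598), the S. paradoxus call without T0 replicate 1 or 3 or M2 replicate 1 (adjusted p from 0.0657 to 0.0775), and the hybrid call without T0 replicate 1, 2 or 3 or M2 replicate 1, 2 or 4 (0.0546 to 0.139). At M1 the S. cerevisiae rise alone was called with all libraries (1.85 ± 0.56, adjusted p = 0.0249), and it was lost without any of the T0 replicates or without M1 replicate 2 (0.0611 to 0.118). The hybrid value at M1 was called without the 5 shallow libraries (1.55, adjusted p = 0.00927). The differences between the parents' changes were −0.76 ± 0.77, −0.39 ± 0.77 and −0.32 ± 0.77 at M1, M1M2 and M2, none called. In S. paradoxus 0 of 12 values over the members passed in the steps from M1 to M1M2 (1.84% of all genes) and from M1M2 to M2 (0%) by edgeR; 1 had an unadjusted p under 0.05 and DESeq2 called 0. HSC82 also had the smallest spread of the members within groups.

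CTT1 encodes the cytosolic catalase, which breaks down hydrogen peroxide and is a classic target of Msn2 and Msn4. It was high at T0 and low afterwards, most of all in S. paradoxus. There its libraries held 8802, 7230.0 and 4056 CPM at T0, then 342, 103 and 248 at M1, 151, 71.8 and 99.1 at M1M2, and 71.0, 11.7 and 186 at M2. The fall was 29-fold at M1 (−4.86 ± 0.83, adjusted p = 7.3e-05), 62.4-fold at M1M2 (−5.96 ± 0.87, adjusted p = 1.57e-06) and 74.4-fold at M2 (−6.22 ± 0.89, adjusted p = 3.54e-07). All 3 calls held under every alternative run, with the M2 value at −5.54 without M2 replicate 2, a library of 4 CTT1 counts, and at −7.26 without M2 replicate 3. Per kilobase, CTT1 averaged 3964 CPM in S. paradoxus at T0, above HSC82 in any group (at most 2278).

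In S. cerevisiae CTT1 stood at 846, 1716 and 526 CPM at T0, 129, 1232 and 150 at M1, 184, 321 and 190 at M1M2, and 340, 234 and 188 at M2. The high M1 library is again the shallow replicate 2. The change from T0 was −1.07 ± 0.72 at M1 (adjusted p = 0.397; −2.89 and called without replicate 2, adjusted p = 0.0265), −2.27 ± 0.78 at M1M2 (adjusted p = 0.0444) and −2.02 ± 0.73 at M2 (adjusted p = 0.0376). The M1M2 call was lost without T0 replicate 1 or 2 or M1M2 replicate 1 or 3 (adjusted p from 0.063 to 0.144). The M2 call was lost without T0 replicate 2 or any of the M2 replicates (0.0527 to 0.145).

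In the hybrid CTT1 stood at 1412, 1323, 2291 and 373 CPM at T0, 414, 287, 931 and 1177 at M1, 211, 175, 96.5 and 72.0 at M1M2, and 436, 497, 639 and 472 at M2. It was lowest at M1M2, where no library overlapped those of any other stage. The change from T0 was −3.28 ± 0.67 at M1M2 (adjusted p = 0.000144) and −1.41 ± 0.63 at M2 (adjusted p = 0.089), and the step from M1 to M1M2 was −2.34 (adjusted p = 0.0124). The later step from M1M2 to M2 (1.88, adjusted p = 0.176) was not called by edgeR, which called 0 of 6 members in that step (0.679% of all genes; 2 members at an unadjusted p under 0.05). DESeq2's Wald test called CTT1 (2.41, adjusted p = 0.00495) and SSA4 (2.14, adjusted p = 0.0183) there, and CTT1 was also called with DESeq2's size factors (adjusted p = 0.0344) and by limma (adjusted p = 0.0309). Both M1M2 calls of CTT1 held whichever library was left out.

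Levels of SSA4 and CTT1 differed between the parents at T0, and SSA4 again at M2. Of 6 genes, 2 were called at T0 (5.04% of all genes), 0 at M1 (2.84%), 0 at M1M2 (3.39%) and 1 at M2 (2.13%). At an unadjusted p under 0.05, 7 of the 24 values passed over the 4 stages, and DESeq2 called 3. At T0 SSA4 was higher in S. paradoxus by 3.52 ± 0.85 (adjusted p = 0.00587) and CTT1 by 2.70 ± 0.75 (adjusted p = 0.0185), and in both genes every S. paradoxus library lay above every S. cerevisiae library. The SSA4 call was lost without S. cerevisiae T0 replicate 3 (3.26, adjusted p = 0.0584). The CTT1 call was lost without S. cerevisiae T0 replicate 1 or 3 or S. paradoxus T0 replicate 1 or 2 (2.28 to 2.64, adjusted p from 0.0524 to 0.136). HSP26 (2.32 ± 0.99, adjusted p = 0.17) and HSP104 (1.59 ± 0.69, adjusted p = 0.174) also had higher T0 values in S. paradoxus and were not called. HSP12 (0.07 ± 0.69) and HSC82 (0.37 ± 0.54) were closest to no difference. The markers of growing cells RPL21A, NOP1 and DBP2 averaged 1684, 2889 and 6308.5 CPM at T0 in S. cerevisiae and 350, 602 and 1747 in S. paradoxus. The parents thus were not alike in these markers at T0, and the part of growth state in the T0 differences was not tested. At M2 SSA4 was lower in S. paradoxus by 3.29 on the log2 scale, a value of −3.29 with an adjusted p of 0.0207, which was lost without S. cerevisiae M2 replicate 2 or any S. paradoxus M2 replicate (adjusted p from 0.0587 to 0.128).

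The change from T0 itself differed between the parents in 5 of 18 tests, 2 of 6 genes at M1 (1.97% of all genes), 1 at M1M2 (2.62%) and 2 at M2 (1.52%). These rest on the same T0 libraries as the differences at T0, where the markers of growing cells also differed in mean between the parents. For SSA4 the S. paradoxus change minus the S. cerevisiae change was −4.34 ± 1.16 at M1 (adjusted p = 0.0268), −3.86 ± 1.16 at M1M2 (adjusted p = 0.0555) and −6.81 ± 1.205 at M2 (adjusted p = 0.00143). For CTT1 it was −3.79 ± 1.04, −3.69 ± 1.06 and −4.20 ± 1.04 (adjusted p = 0.0324, 0.0389 and 0.0266). The SSA4 difference at M2 was called under every alternative run. The SSA4 difference at M1 was lost without any S. cerevisiae T0 replicate, S. cerevisiae M1 replicate 2, S. paradoxus T0 replicate 3 or S. paradoxus M1 replicate 2 (adjusted p from 0.0535 to 0.129). The CTT1 difference at M1 shrank to −1.97 (adjusted p = 0.41) without S. cerevisiae M1 replicate 2. All 3 CTT1 differences were lost without S. cerevisiae T0 replicate 1 or 3 or S. paradoxus T0 replicate 1 or 2. The M1 difference was also lost without any S. paradoxus M1 replicate, the M1M2 difference without S. cerevisiae M1M2 replicate 2 or 3 or any S. paradoxus M1M2 replicate, and the M2 difference without S. paradoxus M2 replicate 1 or 2 (−5.24 and called without replicate 3).

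The hybrid did not differ from S. cerevisiae by a call in any member at any stage (0 of 24 values by edgeR, 1 at an unadjusted p under 0.05, 0 by DESeq2), where 0.84% of all genes were called at T0, 5.37% at M1, 8.34% at M1M2 and 1.16% at M2. Without S. cerevisiae M1 replicate 2 HSP12 was called at M1 (3.12, adjusted p = 0.00279). For SSA4 at M2 the difference was 0.00 ± 0.72 on the log2 scale, with group means of 1024 ± 430.5 CPM (SD, n = 4) and 1019 ± 120 CPM (SD, n = 3). From S. paradoxus the hybrid differed in 2 of 24 values, CTT1 at T0 (1 of 6 members, 2.1% of all genes) and SSA4 at M2 (1 of 6, 0.873%), with 0 of 6 at M1 (1.42%) and at M1M2 (0.84%). CTT1 at T0 was lower in the hybrid (−2.31 ± 0.67, adjusted p = 0.0487), with means of 1349.8 ± 784 CPM (SD, n = 4) against 6696 ± 2417 (SD, n = 3) and no overlap. SSA4 at M2 was higher in the hybrid (3.29 ± 0.83, adjusted p = 0.0267), with a mean of 104 ± 34.7 CPM (SD, n = 3) in S. paradoxus and no overlap. Both calls were lost when single libraries were left out: the CTT1 call without hybrid T0 replicate 1, 2 or 4 or S. paradoxus T0 replicate 1 or 2 (adjusted p from 0.0881 to 0.234), and the SSA4 call without hybrid M2 replicate 3 or 4 or any S. paradoxus M2 replicate (0.0604 to 0.213). Without hybrid T0 replicate 4, HSP26 at T0 was also lower in the hybrid than in S. paradoxus (−3.64, adjusted p = 0.0297), where the value with all libraries was −1.38 ± 0.88.

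In the hybrid the counts were also split by parental allele, and both alleles of a gene share a library. The median share of counts on the S. paradoxus allele was 55.5% at T0, 52.0% at M1, 51.9% at M1M2 and 52.1% at M2. It was taken over tested genes with at least 20 counts over both alleles in at least 3 of the 4 libraries of a stage (2252 to 2741 genes). The member shares below had no such minimum. HSP12 stayed near these values, with mean shares of 56.2%, 48.2%, 50.5% and 52.5% in stage order. HSC82 did so too, at 56.9%, 54.5%, 48.0% and 50.5%. For SSA4 the S. paradoxus share was 38.7%, 80.8%, 86.8% and 36.4% in the 4 libraries at T0, 3.13%, 14.9%, 11.6% and 8.37% at M1M2, and 4.60%, 3.04%, 0% and 19.6% at M2. At T0 the libraries thus lay on both sides of an equal split, and at M1M2 and M2 all 8 lay far on the S. cerevisiae side. The 0% at M2 is 0 of 140 counts in the shallow replicate 3, which allows a share of up to 2.14%. At M1 the shares were 1.02%, 55.4%, 58.2% and 0% (0 of 79 counts, a share of up to 3.80%).

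As levels, the S. cerevisiae allele of SSA4 in the hybrid stood at 48.1, 27.3, 73.7 and 21.4 CPM at T0, 551, 263, 320 and 169 at M1M2, and 658, 618, 1517 and 1006 at M2. The S. paradoxus allele stood at 30.4, 115, 485 and 12.2 CPM at T0, 17.8, 46.0, 41.9 and 15.5 at M1M2, and 31.8, 19.4, 0 and 246 at M2. At M2 the S. cerevisiae allele was thus high where the S. cerevisiae parent was high, and the S. paradoxus allele low where the S. paradoxus parent was low. At T0 the S. paradoxus allele did not match its parent in this way. That parent held 447 to 1459.9 CPM at T0, above most of the hybrid values of its allele. Allele levels count a single allele against the whole library, and parental levels count the whole gene. At M2 the allele difference was −4.59 ± 1.13 (adjusted p = 0.0197), 1 of 6 members called where 1.74% of the 2997 genes tested for alleles were called. At T0, M1 and M1M2, 0 of 6 members were called by edgeR (0.1%, 0.834% and 0.868% of those genes); over the 4 stages 4 of 24 values had an unadjusted p under 0.05, and DESeq2 called 4. The difference was lost without hybrid M2 replicate 1 (−4.74, adjusted p = 0.109), 2 (−4.42, adjusted p = 0.102) or 3 (−3.84, adjusted p = 0.132), and was −5.49 without replicate 4. It was −3.44 ± 1.02 at M1M2 (adjusted p = 0.106), −2.55 ± 1.36 at M1 (adjusted p = 0.583) and 0.93 ± 1.05 at T0 (adjusted p = 0.993). DESeq2's Wald test called the SSA4 difference at M1M2 (−3.44, adjusted p = 0.00925) and at M1 (−2.76, adjusted p = 0.0458). By edgeR with no filter on low counts the M1M2 difference was also called (adjusted p = 0.0194). Whether the allele share differed between stages was not tested.

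**Figure D3:**
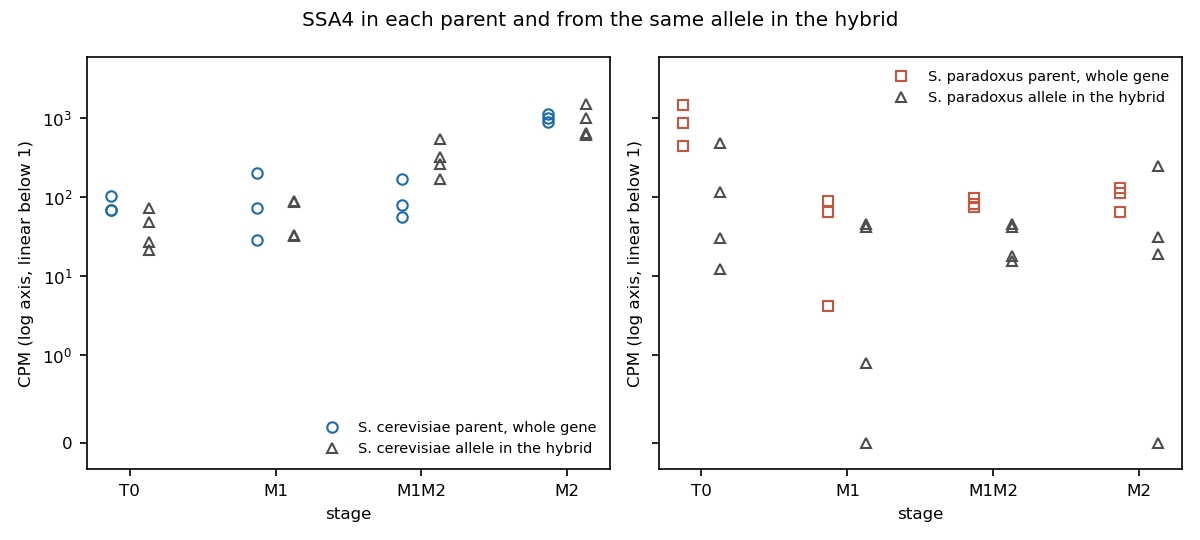
SSA4 level in CPM (axis logarithmic, linear below 1) in each library of the parents and, for the matching allele, in each hybrid library, by stage. Parental values count the whole gene, and hybrid values count a single allele against the counts of the whole library. At M2 the S. cerevisiae allele stands at 618 to 1517 in the hybrid and 904 to 1143 in its parent, and the S. paradoxus allele at 0 to 246 in the hybrid and 65.3 to 132 in its parent.

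CTT1, which differed between the parents at T0, had no called allele difference in the hybrid at that stage. There the S. cerevisiae allele averaged 630 ± 325 CPM and the S. paradoxus allele 720 ± 499 CPM (SD, n = 4), with S. paradoxus shares of 66.0%, 53.3%, 52.6% and 9.84%. The fitted S. paradoxus minus S. cerevisiae allele difference was −0.30 ± 0.79 (adjusted p = 1), opposite in sign to the difference of the means. Without the shallow replicate 4, the library with the share of 9.84%, it was 0.43 (adjusted p = 1). The parental difference minus the allele difference was 2.66 ± 1.098 at T0 with an adjusted p of 0.425, so the contrast between parents and alleles was not called. Over the members and stages that comparison called 0 of 24 values by edgeR and 0 by DESeq2, with 3 at an unadjusted p under 0.05; of all 3092 genes tested it called 0.809% at T0, 0.097% at M1 and 0% at M1M2 and M2. For SSA4 at M2 the parental minus allele value was 0.42 ± 1.34.

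HSP26 leaned to the S. cerevisiae allele at M2, with S. paradoxus shares of 29.5%, 22.9%, 0% (0 of 91 counts, a share of up to 3.30%) and 8.0%, a mean of 15.1% ± 13.5 (SD, n = 4). The allele difference of −3.02 ± 1.04 had an adjusted p of 0.142 and was not called by edgeR, but DESeq2's Wald test called it (−2.99, adjusted p = 0.00195). HSP104 leaned the other way at M2, at 75.6% ± 11.2 (SD, n = 4), with a difference of 1.71 ± 0.82 (adjusted p = 0.421). At M1M2 the HSP104 share was 71.0%, 66.0% and 74.2% in replicates 1, 3 and 4 and 6.54% in replicate 2. CTT1 ranged widely, from 10.2% to 95.2% at M2, and its allele differences were called at no stage.

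**Figure D4:**
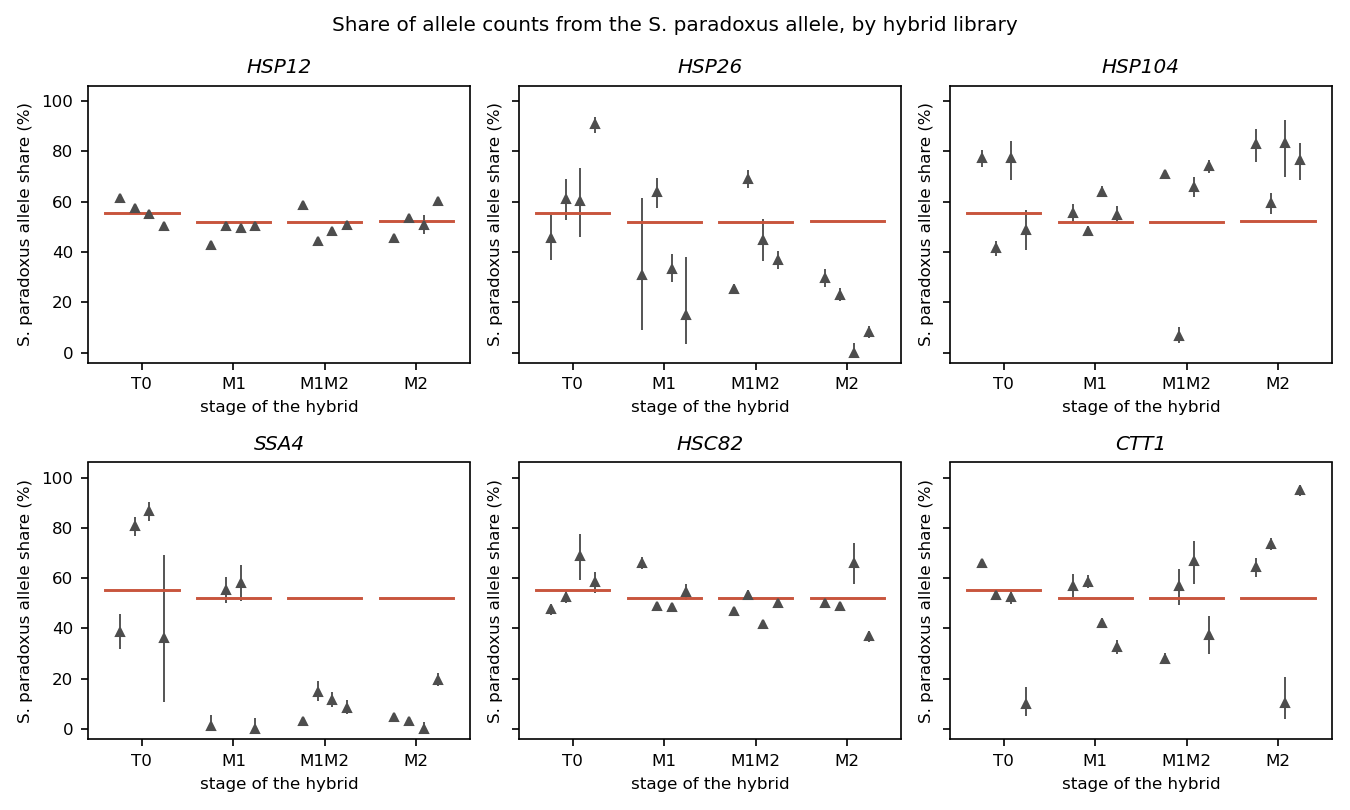
Share of a gene's counts on the S. paradoxus allele in each hybrid library (percent, bars are 95% exact Clopper-Pearson intervals for counting error) by stage. The red line is the median at that stage over tested genes with at least 20 counts over both alleles in most libraries. SSA4 shares at M1M2 and M2 lie at or below 19.6%, under the medians of 51.9% and 52.1%, while HSP12 and HSC82 lie around the line.

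Other genes of the same pathways were counted from named lists. Of 35 other general stress genes (trehalose and glycogen enzymes and further known targets of the stress response), 20 were tested. In S. paradoxus 5 of the 20 fell at M1, 12 at M1M2 and 15 at M2, and 1 rose at each stage; the median changes were −1.63, −2.16 and −2.45, beside −0.10, −0.17 and −0.33 over all genes. Of all genes tested, 1.94%, 5.11% and 8.24% fell at these stages. GPH1, the glycogen phosphorylase, changed by −4.22 ± 0.70, −4.48 ± 0.71 and −5.80 ± 0.76. TSL1, a subunit of the trehalose synthase, changed by −4.88 ± 0.84 at M1M2, and YGP1, a secreted glycoprotein made in starvation, by −4.79 ± 0.76 at M2. The gene that rose at M1 was SIP18, which encodes a hydrophilin (4.50 ± 0.72). In S. cerevisiae 6 rose and 1 fell at M1 (median 0.96, beside 0.02; 4.07% of all genes rose), with TSL1 up by 2.64 ± 0.76; at M2 0 rose and 5 fell, a share near the 22.8% of all genes called there, with YGP1 at −4.45 ± 0.75 and the membrane protein gene MRH1 at −5.98 ± 0.94. Without the 5 shallow libraries the S. cerevisiae M1 count was 2 higher and 2 lower, and without them the S. paradoxus M1 count was 1 higher and 9 lower. In the hybrid 1 rose and 0 fell at M1, 12 fell at M1M2 and 11 at M2 (7 at M2 with DESeq2's size factors), where 12.5%, 22.1% and 26% of all genes were called. Without the 5 shallow libraries 5 were called at M1 in the hybrid, and 2 in S. cerevisiae at M1M2 in place of 4.

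At T0, 9 of these 20 genes were higher in S. paradoxus and 2 lower (median 2.101, beside 0.12 over all genes, of which 3.36% were higher). RTN2, which encodes a reticulon-like protein, was higher by 5.14 ± 0.87, and the membrane protein gene YRO2 was lower (−4.84 ± 0.91). SSA4 and CTT1 were higher in S. paradoxus at the same stage. The means of the markers of growing cells were lower there in S. paradoxus, and the part of growth state was not tested. The change to M1 differed between the parents in 10 of the 20, 9 lower and 1 higher in S. paradoxus (1.97% of all genes called), with RTN2 at −6.00 ± 1.12 and TSL1 at −5.61 ± 1.08.

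Among the cytosolic Hsp70 and Hsp40 genes (8 tested of 19), medians were below those of all genes in all 9 comparisons with T0. The ribosome-bound Hsp70 gene SSB1 fell in all 9, with −4.95 ± 0.99 at M2 in S. cerevisiae, −4.63 ± 0.98 in S. paradoxus and −2.34 ± 0.78 in the hybrid; its near-identical copy SSB2 fell at M1M2 in S. cerevisiae (−2.35 ± 0.74) and at all 3 stages in the hybrid, and reads of the copies may have been split between them. BTN2, which encodes a factor that sorts misfolded proteins, rose at M2 in S. cerevisiae (2.92 ± 1.102) and at M1M2 (4.36 ± 1.17) and M2 (3.54 ± 1.13) in S. paradoxus. SSA4 was called opposite to SSB1 in S. cerevisiae and the hybrid at M2, and fell as SSB1 did in S. paradoxus.

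Of the Hsp90 list (7 tested of 10), CDC37, the cochaperone that brings kinases to Hsp90, rose in S. cerevisiae at M2 (3.21 ± 0.61) and in the hybrid at M1M2 (2.13 ± 0.50) and M2 (2.65 ± 0.51). AHA1, which stimulates the Hsp90 ATPase, rose in S. cerevisiae at M1M2 (4.05 ± 0.93), and the cochaperone gene CNS1 fell there (−3.77 ± 1.00) and at M1 (−5.18 ± 1.02). None of the 7 was called in S. paradoxus against T0 by edgeR (1 of 21 values at an unadjusted p under 0.05, 1 by DESeq2). Among chaperones of the endoplasmic reticulum and mitochondria (7 tested of 15), KAR2, the Hsp70 of the endoplasmic reticulum, rose with HSC82: by 4.07 ± 0.69 in S. cerevisiae, 3.20 ± 0.66 in S. paradoxus and 3.55 ± 0.58 in the hybrid at M1M2. LHS1, another Hsp70-like protein there, rose at M1M2 in S. cerevisiae (4.26 ± 1.03) and the hybrid (2.85 ± 0.83).

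The cytosolic chaperonin, a ring of 8 kinds of subunit, was represented by 7 tested genes. In S. cerevisiae and the hybrid medians over the 7 ran from −1.97 to −0.94 in the 6 comparisons with T0, and at most 4 of 7 were called, at M2 in the hybrid, where 26% of all genes were. There CCT3 changed by −2.50 ± 0.66 and CCT7 by −2.36 ± 0.67. In S. paradoxus medians were −0.16, 0.14 and −0.20, and 0 were called by edgeR (0 of 21 values at an unadjusted p under 0.05, 0 by DESeq2).

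Beside CTT1, 10 of 26 other oxidant defence genes were tested, and at most 3 were called in a comparison with T0 (at M2 in the hybrid, a share near the 26% of all genes called there). TSA1, the main cytosolic peroxiredoxin, rose in S. cerevisiae at M1 (2.69 ± 0.77) and M1M2 (3.72 ± 0.81) and in the hybrid at M2 (2.41 ± 0.66). The glutaredoxin gene GRX2 fell in S. paradoxus at M1M2 (−2.57 ± 0.72) and M2 (−3.48 ± 0.75) and in the hybrid at M2 (−2.45 ± 0.62). CTT1 changes were larger than these in S. paradoxus. Of 19 regulators of the stress response 11 were tested. GIS1, a transcription factor of nutrient limitation, rose at M2 in S. cerevisiae (3.69 ± 0.76) and the hybrid (3.36 ± 0.65), MSN4 fell at M2 in S. cerevisiae (−3.90 ± 1.27), and the kinase genes SCH9 (−2.83 ± 0.83) and TPK2 (−3.22 ± 1.03) fell at M2 in S. paradoxus. USV1, a stress-related zinc finger factor, was higher in S. paradoxus at T0 (3.00 ± 0.93).

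The genes whose group means followed each member most closely were taken from 2857 tested genes, by Pearson's r of mean log2 CPM over the 12 groups, which share their library depths within a group. HSP12 was closest to SKN1 (0.90) and MSN4 (0.85), and HSP26 to YNR014W (0.91) and RKM5 (0.86). HSP104 was closest to ASH1 (0.93) and SRV2 (0.90), and SSA4 to FMP10 (0.87) and MEO1 (0.83). HSC82 was closest to KAR2 (0.94) and NGK1 (0.91), and CTT1 to CRS5 and PTK2 (0.88 each). Among the members themselves, HSP26 and SSA4 had the highest r (0.80) and HSC82 and CTT1 the lowest (−0.79).

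Set in order of mean log2 CPM over the 12 groups, CTT1 spanned 6.85 log2 units from S. paradoxus at T0 to S. paradoxus at M2. SSA4 spanned 5.01, from S. cerevisiae at M2 to S. paradoxus at M1, and HSP26 spanned 5.14, from hybrid M2 to S. cerevisiae M1. HSC82 spanned 2.95, from S. cerevisiae M1M2 to hybrid T0, and HSP104 spanned 2.90, from S. cerevisiae M1 to S. cerevisiae M2. Most neighbours in these orders lay closer than the larger of their SDs. The exceptions were 1 of 11 pairs for CTT1 (S. paradoxus T0 above hybrid T0), 1 for SSA4 (S. paradoxus T0 above hybrid M1M2), 1 for HSP26 (S. cerevisiae M2 above S. paradoxus M2), 3 for HSC82 (S. paradoxus M1, hybrid M1, S. paradoxus T0 and S. cerevisiae T0, each above the next) and 0 for HSP104.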

How the data were processed

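Poly(A) RNA of 40 cultures was reverse transcribed, sheared and sequenced on Illumina HiSeq lanes, per the labels' protocols. The authors deposited raw counts per feature, for the hybrid both summed and per parental allele, and log2-like values after variance stabilisation. Bowtie 0.12.7 and DESeq 1.8.3 are named in the submitters' processing notes; the counting tool, its strand setting, annotation and genome build are not given in the sources used here. The extract protocol marks no strand. Of 3463 features, 246 name no gene (0.392% to 4.95% of a library's counts) and were left out. Of 3062 open reading frame names left, 3058 are of the W strand. No 2 libraries were identical, and the hybrid counts equalled the sum of the alleles.

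The deposited counts were tested with edgeR 4.0.16 (R 4.3.3; TMM factors, filterByExpr by group, quasi-likelihood test, Benjamini-Hochberg over all genes within a comparison, threshold 0.05) in 1 model of the 12 groups of genotype and stage (3094 genes). Alleles were tested in the 16 hybrid libraries with the library as a block and its TMM factors kept (2997 genes), and the parental minus allele difference in 1 model of 16 groups (3092 genes). The models were tested on simulated counts. Log2 CPM used a prior count of 2. Levels per kilobase used R64 coding lengths, and names and sequences came from RefSeq R64, in which 2772 of 3217 genes had a name; coordinates are those of the annotation and not of the deposited tables. Allele shares have 95% exact Clopper-Pearson intervals, and a count of 0 was read as up to 3 counts; both cover counting error only. Alternatives were DESeq2 1.42.0 (its size factors, or its Wald test), limma 3.58.1 on the deposited log2-like values, no filter, other blocks, fewer groups and libraries left out. Python 3.11.15 with pandas 2.3.3 and scipy 1.17.1 made the remaining tables. The members and the gene lists were chosen with earlier results of these data known. Besides the members, at most 2 genes of a list were named per comparison, chosen among called genes by size of change, given 50 or more counts on average; for likeness, the 2 genes with the highest r. The 600-base motif window and the stretches printed ignore where transcription starts.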

Additional observations from a re-analysis of the deposited data

Results flagged for a closer look

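Each member was checked in the 4 hybrid groups of 4 libraries for a library far from the others, as CPM and as allele share. Of 48 such groups, 3 held one, and chance alone marks about 1 in 20. The HSP26 level in hybrid T0 replicate 4, a shallow library, was 1025 CPM, where the other libraries held 48.1 to 86.8. The S. paradoxus share of HSP104 in hybrid M1M2 replicate 2 was 6.54%, where the others held 66.0% to 74.2%. The S. paradoxus share of HSP12 in hybrid M1 replicate 1 was 42.9%, where the others held 49.4% to 50.3%.

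The change from T0 differed between the parents, by a test of the difference itself in edgeR, for SSA4 and CTT1. For SSA4 the S. paradoxus change minus the S. cerevisiae change was −4.34 at M1 (adjusted p = 0.0268) and −6.81 at M2 (adjusted p = 0.00143). For CTT1 it was −3.79 at M1 (adjusted p = 0.0324), −3.69 at M1M2 (adjusted p = 0.0389) and −4.20 at M2 (adjusted p = 0.0266). Only the SSA4 difference at M2 was called in every setting run. With 1 library left out at a time, SSA4 at M1 kept its call in 6 of 12 fits. CTT1 kept its calls at M1, M1M2 and M2 in 4, 3 and 6 of 12.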

How the results depend on the processing

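Of 228 member values 34 were called; 13 of these kept their call in every setting run, and 0 of the 34 changed sign. HSP12 values that were not called turned sign. S. cerevisiae M1 minus T0 was −2.86 without the 4 or the 5 shallowest libraries and ran from −2.79 (without S. cerevisiae M1 replicate 2) to 0.87 with 1 library left out. Hybrid minus S. cerevisiae at M1 was 3.19 without the shallowest libraries and ran from −0.54 to 3.12, and S. cerevisiae M1M2 minus M1 ran from −1.22 to 2.61. Calls over a family of comparisons moved as follows. For hybrid stages against T0 (5 calls) there were 9 without the 5 shallowest libraries, a choice made after seeing the data, and 3 with only the groups compared. Hybrid consecutive stages (2 calls) gave 6 by DESeq2, 5 without the 4 or 5 shallowest libraries and 5 with only the groups compared. S. cerevisiae consecutive stages (1 call) gave 2 without the shallowest libraries. The species difference in change (5 calls) gave 2 with DESeq2's size factors. Hybrid against S. cerevisiae (0 calls) gave 2 without the shallowest libraries, and hybrid against S. paradoxus (2 calls) gave 4 by DESeq2, 4 by limma and 1 without the 4 shallowest. Alleles (1 call) gave 4 by DESeq2, 2 with no filter and 0 without the shallowest libraries. The cause of these moves was not tested. Leaving out 1 library at a time gave 4 to 7 calls for S. cerevisiae stages, 7 to 9 for S. paradoxus stages, 4 to 8 for hybrid stages, 0 to 2 for S. cerevisiae and 1 to 2 for hybrid consecutive stages, 1 to 3 for the species difference, 1 to 6 for the difference in change, 0 to 1 for hybrid against S. cerevisiae, 1 to 3 for hybrid against S. paradoxus and 0 to 1 for alleles.

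Same-numbered libraries of a genotype showed little common deviation on average, with mean correlations of 0.0135 (hybrid), 0.0436 (S. cerevisiae) and 0.00724 (S. paradoxus). Single pairs reached 0.180, 0.208 and 0.129 in the same order. A mean over all genes cannot exclude that some libraries or genes are paired. With the replicate number as a block, hybrid consecutive stages gave 1 call, hybrid against S. paradoxus 1 and alleles 0. Depth limits the allele shares where a library held few counts of a gene, such as 11 of SSA4 in hybrid T0 replicate 4.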

Other observations

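Hybrid libraries with the same replicate number are not paired by the labels, and the direction of the cross is not given per library. The S. paradoxus share of SSA4 was 38.7% and 36.4% in replicates 1 and 4 at T0 and 80.8% and 86.8% in replicates 2 and 3. At M1 it was 1.02% and 0% in replicates 1 and 4 and 55.4% and 58.2% in replicates 2 and 3. At both stages replicates 1 and 4 thus lay below replicates 2 and 3, an order noticed in the data and not tested. At M1M2 replicates 1 and 4 (3.13% and 8.37%) again lay below replicates 2 and 3 (14.9% and 11.6%), but at M2 replicate 4 was the highest (19.6%), with 4.60%, 3.04% and 0% in replicates 1, 2 and 3.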
